A study of Mus musculus with 4 samples.

Results

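Pi16 progenitor-like cells, fibroblasts marked by Pi16 and Dpp4, were followed in single-cell RNA sequencing of lymph node stroma from control mice and from mice lacking Notch2 in cells with a history of Ccl19 expression. A cell was counted as a member when it had at least 500 genes, at least 1000 unique molecular identifiers (UMIs, each marking 1 captured transcript) and at most 10% mitochondrial UMIs. It also had to hold at least 3 UMIs of Pi16, UMIs of at least 2 of 7 further genes (Dpp4, Sema3c, Anxa3, Cd55, Smpd3, Mrgprg and Pcsk6), and none of the endothelial gene Pecam1 or the leukocyte gene Ptprc. The rule found 635 cells among 46638 that passed the quality limits. The study addressed the part that Notch2, a receptor of the Notch pathway, plays in fibroblasts of the lymph node. Live cells without CD45 and CD31 were sorted from axillary, brachial and inguinal nodes of female C57BL/6 mice aged 12 weeks, giving 4 libraries in 2 batches. In batch 1, control 1 (Ccl19-Cre with the R26R-EYFP reporter) and Notch2 cKO 1 (Notch2 fl/fl with Ccl19-Cre and R26R-EYFP) pooled 6 mice each, and the mice were not littermates. In batch 2, control 2 (Notch2 fl/fl without Cre) and Notch2 cKO 2 (Ccl19-Cre x Notch2 fl/fl) pooled 3 littermates each. The genotype label of control 2 was followed, although its title names Ccl19-Cre. Each library was taken as 1 replicate (n = 2 per group). The labels do not say how the mice of a pool differ, so the spread between single mice is not measured. In the gene tests within members and between cell groups described below, the spread came from a trend common to genes. It was not each gene's own spread between pools.

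Cells of this kind lie in the adventitia, the connective tissue cuff around larger vessels, and in the capsule and fascia of many organs. They are known as a reserve population of fibroblasts that can give rise to more specialised fibroblasts and to adipocytes. Reticular fibroblasts of the T-cell zone, in contrast, build the inner scaffold of the node and secrete the chemokines CCL19 and CCL21. Cre under the Ccl19 promoter acts in cells that express Ccl19 or descend from such cells. Notch receptors are cleaved after binding a ligand on a neighbouring cell, and the freed domain acts with the DNA-binding protein RBPJ on target genes such as Hes1.

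Control 1 held 77 members among 9053 cells and Notch2 cKO 1 278 among 7817. Control 2 held 208 among 17014 and Notch2 cKO 2 72 among 12754. Depth differed between batches: members held a median of 1864 and 2933.5 UMIs in batch 1 and 9314.5 and 6750 in batch 2. Summed over members, the libraries held 171907, 879119, 1995598 and 548129 UMIs in the same order, so low counts were least precise in control 1. No member barcode occurred in more than 1 library, while any pair of libraries shared 21 to 57 barcodes over all cells. Cells with the highest Scrublet doublet scores made up 27.3%, 14.0%, 20.2% and 8.33% of members. Over all cells of these libraries the shares were 7.25%, 6.26%, 13.6% and 10.2%, so members were among the high scores more often than cells at large in 3 libraries. The 8 leukocyte markers summed to 0 to 10.9 CPM (UMIs scaled to a common total), with Cd3e, C1qa and Tyrobp at 0, and the 8 endothelial markers summed to 2.27 to 11.6. The Schwann marker Sox10, the mesothelial markers Msln, Upk3b, Lrrn4 and Upk1b, the adipocyte markers Adipoq, Cidec and Lep, and the epithelial markers Krt8, Cdh1 and Krt5 were at 0 in members of every library. The 6 Schwann markers summed to 81.4, 33.0, 36.1 and 43.8 in members, above 14.9, 24.2, 24.9 and 40.2 in other Pdgfra cells. The 6 mesothelial markers summed to 5.82, 23.9, 20.0 and 73.0 against 1.61, 1.78, 5.32 and 5.38, and the 6 epithelial markers to 5.82, 11.4, 13.0 and 69.3 against 6.76, 0.867, 18.4 and 16.8. Both lists hold the keratin gene Krt19, which was 2.87 to 29.5 times higher in members and stood at 65.7 in Notch2 cKO 2, so these markers were highest in members of that library. The 8 mural markers summed to 489, 144, 301 and 192, below 1271, 745, 1317 and 972 in other Pdgfra cells.

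Levels are CPM, a gene's UMIs summed over the cells of a group in a library and scaled to the group's total, in the order control 1, Notch2 cKO 1, control 2 and Notch2 cKO 2. They are compared between cell groups or libraries and not between genes. The main group set beside the members was the 29390 other cells with a Pdgfra UMI and no Pecam1 or Ptprc UMI, called other Pdgfra cells. Since the members were chosen on measured levels, their difference from other cells is a description and was not tested. Over the 13994 genes later tested between these groups, 28.0% stood higher in members in both controls and 29.9% in both Notch2 cKO. Counts of listed genes below are to be read beside these shares. No share lower in members was counted over all genes. Pi16 (peptidase inhibitor 16, chromosome 17, 29317680 to 29330593, plus strand, mm10) stood at 3159, 3734, 2092 and 2359 in members against 3.80, 9.10, 3.16 and 2.08 in other Pdgfra cells. Its median was 7, 10, 15 and 13.5 UMIs per member, and the highest cell held 111. Members held 87.7%, 92.7%, 86.9% and 76.4% of the Pi16 UMIs of their libraries. The rule asks for at least 3 Pi16 UMIs in a cell, so a high share in members follows in part from the rule.

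Dpp4, a cell-surface peptidase also called CD26, stood at 366, 442, 422 and 423 in members and at most at 2.38 in other Pdgfra cells. The secreted guidance protein gene Sema3c reached 971, 1060, 1004 and 805, and the annexin gene Anxa3 809, 929, 649 and 881. Cd55, which encodes a brake on complement, was the rule gene with the smallest margin, 8.73 to 18.7 times its level in other Pdgfra cells. Smpd3, a sphingomyelinase gene, was lower in batch 2 (784 and 1319) than in batch 1 (1606 and 2929), and so was Mrgprg, an orphan receptor gene (334 and 186 against 989 and 1931). The proprotein convertase gene Pcsk6 ranged from 339 to 647. All 7 further genes were detected together in 10.4%, 37.1%, 31.3% and 23.6% of members.

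Members with exactly 3 Pi16 UMIs numbered 12, 22, 10 and 5 in the 4 libraries. Their Cd34 level was 1190, 1194, 585 and 925, against 1454, 713, 813 and 850 in cells that met the rest of the rule with exactly 2 Pi16 UMIs. Neither side of the limit was higher in all 4 libraries. Cells with at least 3 Pi16 UMIs but fewer than 2 of the further genes numbered 4, 13, 11 and 13, and 0, 3, 16 and 9 others were left out for a Pecam1 or Ptprc UMI.

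Genes outside the rule that mark such cells were also high. Cd34, a sialomucin of vascular and adventitial progenitors, stood at 1350, 1627, 1073 and 1148 in members and at 40.9, 36.3, 31.9 and 20.5 in other Pdgfra cells. Cd248 (endosialin) was 31.9 to 77.7 times higher in members, and Ly6a, which encodes the stem cell antigen Sca-1, was 5.46 to 12.5 times higher. The microfibril gene Mfap5 was 36.5 to 73.0 times higher, the procollagen enhancer gene Pcolce2 26.5 to 48.5 times and the fibulin gene Efemp1 20.4 to 37.5 times. Dermatopontin (Dpt), a collagen-binding matrix protein, had a smaller margin of 2.61 to 5.89, and tetranectin (Clec3b) one of 4.63 to 8.80. Of 37 genes listed for adventitial progenitors and not used by the rule, 30 were higher in members than in other Pdgfra cells in all 4 libraries and 1 was lower in all 4. The markers thus went with the label of the cells in each library.

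**Figure D1:**
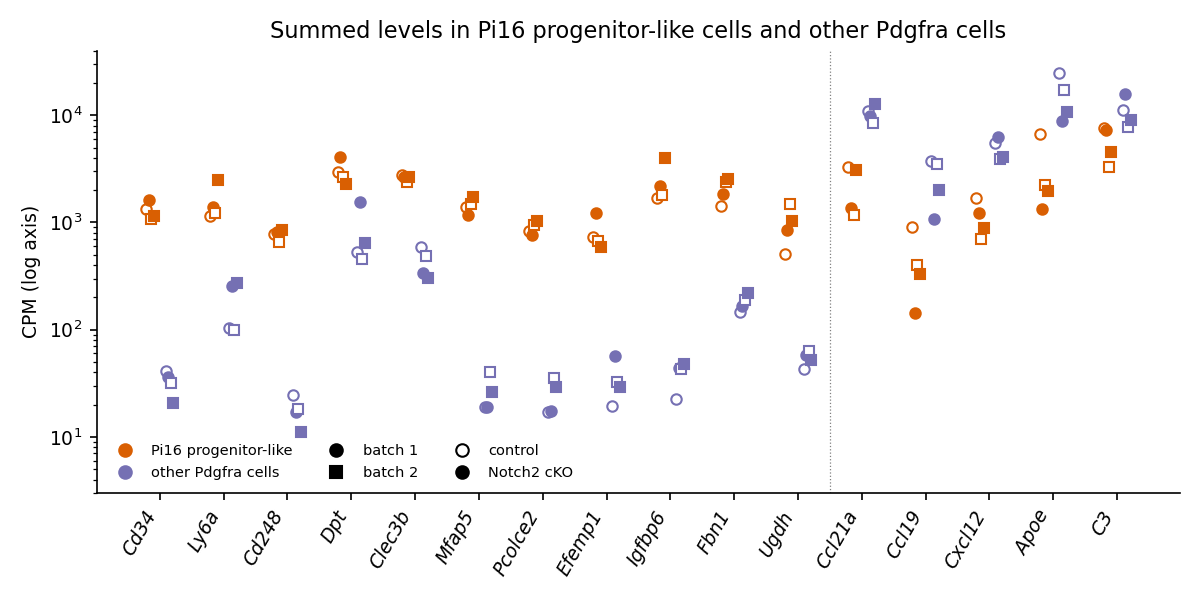
Summed levels (CPM, log axis) of 11 genes higher in Pi16 progenitor-like cells and, right of the dotted line, 5 genes lower in them, in each library. Circles are batch 1, squares batch 2, open symbols controls and filled symbols Notch2 cKO; for every gene the 4 values of one cell group lie apart from the 4 of the other.

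Of 2363 genes at 50 CPM or more in members of every library, 67 were at least 10 times higher than in other Pdgfra cells in all 4. The 15 with the largest lowest-library ratio were Car8, Efhd1, Aif1l, Opcml, Ston2, Adgrd1, Creb5, Ptx3, Tmem100, Mgll, Pla1a, Igfbp6, Fndc1, Pdgfc and Mfap5. Car8, a carbonic anhydrase-related protein of neurons, stood at 291, 274, 255 and 188 in members and at most at 0.722 in other Pdgfra cells. Opcml, a cell adhesion gene, was 79.0 to 198 times higher, with 285 and 266 in batch 1 and 1041 and 1239 in batch 2. Igfbp6, which binds insulin-like growth factor II, stood at 1704, 2166, 1810 and 3977 in members, 22.4 to 47.5 in other Pdgfra cells and 394 to 696 in Cd34 cells without Pi16. These last cells, 724 with Cd34 and at least 2 of Mgp, Fbln1 and Fmo2, were a further group set beside the members. Mfap5 was also intermediate there, at 292, 200, 379 and 283, whereas Car8 was at most at 7.41 and Aif1l, an actin-binding protein gene, at most at 0.394.

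Of 20 genes of elastic fibres and microfibrils, 12 were higher in members than in other Pdgfra cells in all 4 libraries and 2 were lower. Fibrillin-1 (Fbn1), the backbone of microfibrils, stood at 1437, 1856, 2372 and 2547 in members and at 147, 166, 188 and 220 in other Pdgfra cells. Loxl1, a cross-linking enzyme gene, was 4.78 to 10.2 times higher. Of 17 collagen genes 12 were higher in all 4 libraries, with Col3a1 at 2.35 to 3.38 times and the fibril-associated Col14a1 at 4.94 to 13.9 times. The basement membrane genes Col4a1 and Col4a2, picked here after their values were seen, were lower in members of all 4 libraries (Col4a1 244, 183, 357 and 241 against 507, 417, 518 and 441). Among the small leucine-rich proteoglycans Ogn was 5.58 to 7.82 times higher and Bgn 2.02 to 4.43 times lower in members.

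Hyaluronan, a large sugar polymer of the matrix, is built from a precursor made by UDP-glucose dehydrogenase (Ugdh). Ugdh stood at 506, 842, 1481 and 1025 in members, 11.9 to 23.2 times other Pdgfra cells. The synthase gene Has1 was 4.87 to 21.1 times higher, and Tnfaip6, whose product ties hyaluronan to other proteins, 4.02 to 12.8 times higher. All 3 were higher in batch 2 than in batch 1 among members. Of 20 proteases and their inhibitors, 12 were higher in members in all 4 libraries, including Timp2 and Timp3, inhibitors of metalloproteinases, and Pcolce2.

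Some signalling genes were far higher in members than in other Pdgfra cells. Wnt10b, a Wnt ligand gene known from preadipocytes, stood at 122, 102, 47.1 and 31.0 in members and at most at 0.338 in other Pdgfra cells. Aldh1a3, which makes retinoic acid, stood at 262, 274, 125 and 58.4 against 6.00, 1.44, 5.86 and 2.09. Of 20 Wnt ligands and modulators 8 were higher and 5 lower in members in all 4 libraries, and of 21 genes of the BMP and TGF-beta pathway 6 were higher and 7 lower. The receptor gene Tgfbr2 was 5.47 to 8.13 times higher, and Fstl1, a secreted BMP antagonist, 4.49 to 5.79 times higher. The interferon-inducible Ifi27l2a was 10.4 to 21.4 times higher, while the list of 14 interferon response genes was mixed, with 4 higher and 3 lower.

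Genes of the reticular scaffold were lower. Of 13 factors of the T-cell zone 11 were lower in members than in other Pdgfra cells in all 4 libraries. Ccl21a stood at 3292, 1366, 1186 and 3114 against 11049, 9845, 8454 and 12696, and Cxcl12, which guides lymphocytes and dendritic cells, was 3.28 to 5.62 times lower. The lipid carrier gene Apoe was 3.70 to 7.79 times lower. None of 12 complement genes was higher in all 4 libraries and 8 were lower, among them C3 (1.47 to 2.35 times) and Clu (2.60 to 7.34 times). All 11 antigen presentation genes and 12 of 14 immediate early genes, which respond to tissue dissociation, were also lower in all 4. Only 28.0% of all genes stood higher in members in both controls. No share lower in all 4 libraries was counted over all genes, so whether these counts set the lists apart was not tested.

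Reticular transcripts were also found in leukocytes and Schwann-type cells. With every cell thinned to 1000 UMIs, Ccl19 was detected in 27.3%, 7.19%, 20.2% and 15.3% of members. In leukocytes, which should lack it, the shares were 7.69%, 8%, 18.5% and 10.5%, and in Schwann-type cells of batch 2 they were 16.3% and 2.44%. Without thinning, Ccl19 was found in 28.6%, 13.3%, 59.6% and 36.1% of members and in 15.4%, 8%, 53.5% and 30.5% of leukocytes. The thinned share in members of Notch2 cKO 1 was not above that of leukocytes, and leukocytes of batch 1 numbered only 13 and 25 cells. Thinned Ccl21a shares were 29.9%, 21.6%, 26.4% and 31.9% in members and 23.1%, 8%, 39.5% and 35.6% in leukocytes, so in batch 2 the members lay below the leukocytes. Both Ccl19 and Ccl21a were at 0 UMIs in 43, 180, 20 and 15 members, fewest in the deeply sequenced batch 2. Whether members or leukocytes express these chemokines themselves was not tested.

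Among single members, variation was assessed as the variance over the mean of thinned counts, which is 1 for random sampling. Over 476 genes with a mean of at least 0.2 UMIs per thinned member in every library, the median of each gene's lowest library value was 0.999. Ccl21a (7.73), Apoe (4.78), Igfbp5 (4.65), Gsn (3.95), Clu (2.83) and Cxcl12 (2.72) had the highest lowest-library values apart from the nuclear RNA Malat1 (9.64) and the predicted gene Gm42418 (5.94). For Ccl21a, 61.0%, 66.2%, 16.8% and 27.8% of members were at 0 UMIs. With UMIs scaled to each cell's total, the 10% of members with most Ccl21a held 68.0%, 86.7%, 75.4% and 87.8% of the scaled sum. A small group of cells thus carried most of this reticular transcript in every library, and the part of doublets in this was not tested. Igfbp5, which binds insulin-like growth factors, was spread differently: only 6.49%, 9.71%, 14.9% and 12.5% of members lacked it. Its highest 10% of members held 31.5%, 31.6%, 40.6% and 35.7% of its scaled sum. The actin-severing gelsolin gene Gsn was found in every member. Among the rule genes, Smpd3 had a value of 2.20 and Pi16 one of 1.81, and Smpd3 was at 0 UMIs in 13.0%, 3.96%, 26.9% and 11.1% of members.

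**Figure D2:**
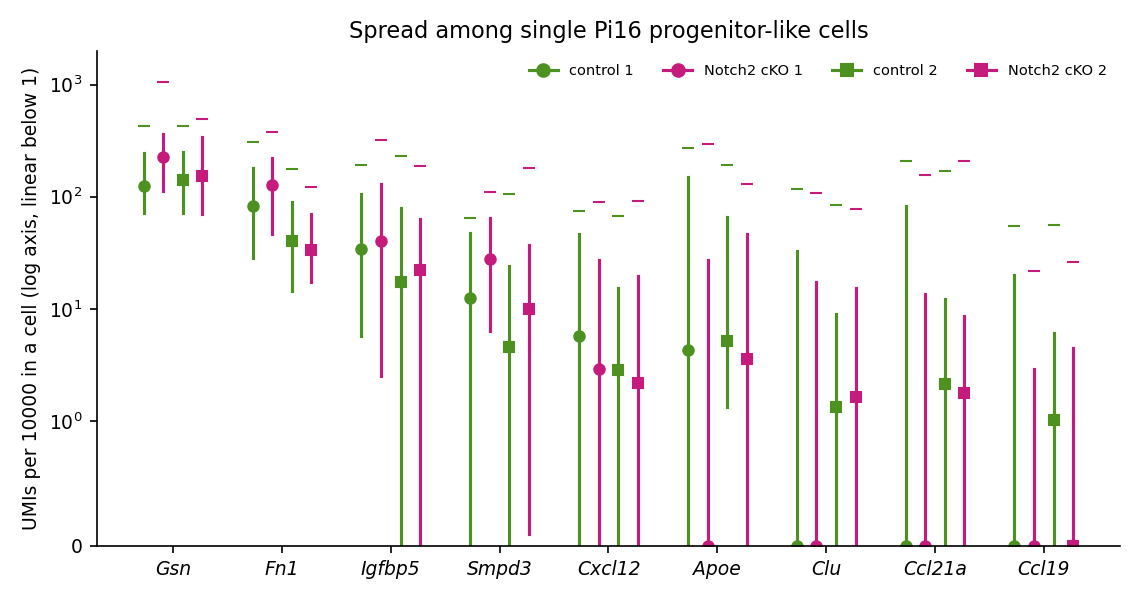
UMIs per 10000 in single Pi16 progenitor-like cells for 9 genes (log axis, linear below 1). Symbols are medians, vertical lines run from the 10th to the 90th percentile and short bars mark the highest cell; the medians of Ccl21a lie at 0 in control 1 and Notch2 cKO 1, while its highest cells reach 157 to 207.

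The share of these cells in the sorted stroma differed between libraries without following genotype. In batch 1 it was 0.851% in the control (95% Clopper-Pearson interval 0.672 to 1.06) and 3.56% in Notch2 cKO (3.16 to 3.99). In batch 2 it was 1.22% (1.06 to 1.40) and 0.565% (0.442 to 0.710). Notch2 cKO was 4.18 times control in batch 1 and 2.17 times lower than control in batch 2, so the batches went in opposite directions. The control mean was 1.04 ± 0.263% and the Notch2 cKO mean 2.06 ± 2.12% (SD, n = 2). The exact two-sided permutation test over the 4 libraries gave p = 1, where 0.333 is the smallest p that test allows. It permuted genotype over all 4 libraries and did not keep the batches as pairs. The intervals cover counting error only. With cells thinned to 1000 UMIs and 1 UMI of Pi16 and 1 of the further genes required, the shares were 1.06%, 3.58%, 1.02% and 0.565%.

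**Figure D3:**
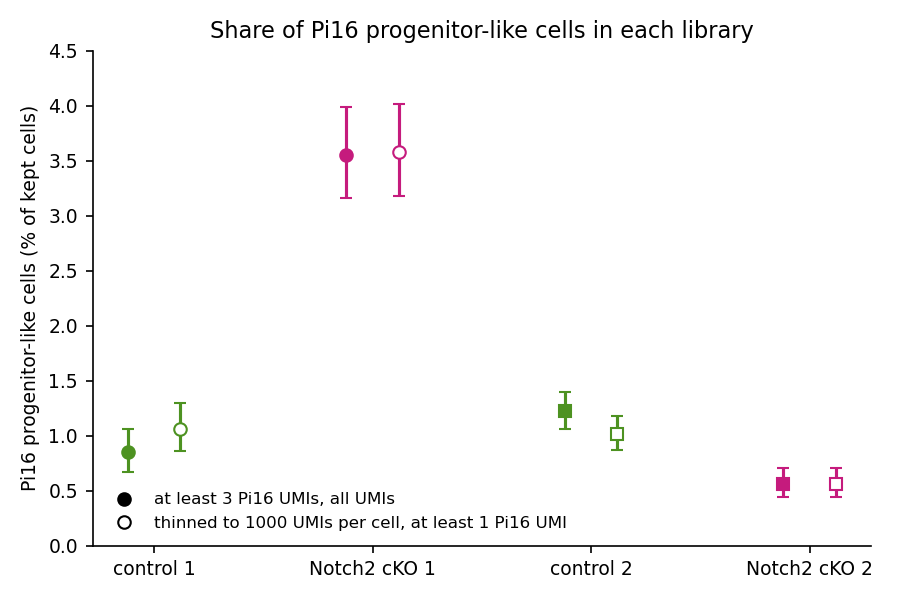
Share of Pi16 progenitor-like cells among kept cells of each library (%), with 95% Clopper-Pearson intervals. Filled symbols use all UMIs and open symbols use cells thinned to 1000 UMIs with at least 1 Pi16 UMI; Notch2 cKO 1, at 3.56%, lies above the 3 other libraries and Notch2 cKO 2, at 0.565%, below them.

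Within the members, few genes differed between genotypes. UMIs were summed over members in each library, and edgeR's quasi-likelihood test, blocked by batch, was used with p-values adjusted by Benjamini and Hochberg and a threshold of 0.05. Of 8067 genes, 10 rose (0.124%) and 18 fell (0.223%) in Notch2 cKO, 0.347% of those tested, and 23 of the 28 had 1 sign in both batches. The median log2 difference over all genes tested was 0.01. At an unadjusted p under 0.05 there were 149 higher and 208 lower genes. The design left 1 residual degree of freedom, and edgeR set every gene's spread from a common trend, so disagreement between batches did not widen the error of a single gene. Other settings changed the count. There were none without the batch term (24 higher and 47 lower at an unadjusted p under 0.05) and none with DESeq2 (10 and 40). Leaving out control 1, with no batch term in the model, left 3 calls, and there were none without Notch2 cKO 1 or without control 2, and 105 without Notch2 cKO 2. With the cells of highest doublet score removed 7 genes passed, of which 5 were among the 28.

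The called genes were mostly at lower levels in members than in other Pdgfra cells. Of the 28, 22 were lower in members than in other Pdgfra cells in all 4 libraries and 2 were higher. Members held under 10 UMIs in at least 1 library for 17 of the 28, so many calls rest on low counts. Among the 13994 genes of the later test between cell groups, 28.0% stood higher in members in both controls and 29.9% in both Notch2 cKO. No share lower in all 4 libraries was counted over all genes, so the 22 are a description. In other Pdgfra cells 24 had the same sign and 18 passed the same test in that direction, where 721 of 17171 genes (4.2%) passed. The part of free RNA from other cells in these differences was not tested. In summed counts, fewer cells with a transcript and less transcript per cell cannot be told apart.

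Genes of antigen presentation by MHC class II made up 4 of the 8 named rises. Of 11 antigen presentation genes listed, 4 rose and none fell, beside 0.124% and 0.223% of all genes tested, with a median log2 difference of 0.45 over the 10 tested. Cd74, the invariant chain that guides class II molecules, stood at 64.0, 177, 28.6 and 339. Both Notch2 cKO libraries lay above both controls, and the log2 difference was 2.82 (SE 0.36, adjusted p = 8.38e-11, edgeR quasi-likelihood test). In other Pdgfra cells Cd74 was higher throughout, at 346, 1130, 246 and 901, and also rose (1.76, SE 0.27). The difference in members exceeded it by 1.12 for Cd74 (adjusted p = 0.0114, edgeR) and by 1.22 for H2-Ab1 (adjusted p = 0.0378, edgeR), the 2 genes of this list that passed that test. Both had opposite signs by batch in it, -0.21 and 1.53 for Cd74 and -0.42 and 1.69 for H2-Ab1. H2-Aa (3.23), H2-Eb1 (3.03) and H2-Ab1 (2.39), chains of class II molecules, rose as well. H2-Eb1 rested on 4, 38, 14 and 53 UMIs, and 3 of the 11 members with it in Notch2 cKO 2 held 69.8% of the UMIs there. In that library 3 of 18 members with Cd74 held 70.4% of its UMIs, and 3 of 11 with H2-Ab1 held 71.8%. In Notch2 cKO 1 the highest 3 members held 28.2% for Cd74 and 27.0% for H2-Ab1. Thinned Cd74 shares were 3.90%, 6.47%, 2.88% and 11.1% of members (9.09%, 13.7%, 10.6% and 25.0% without thinning), and in the Schwann-type cells of batch 2 they were 0% and 2.44%, on 49 and 41 cells. The sum of the 8 leukocyte markers was 0, 6.83, 3.51 and 10.9 in members, higher in Notch2 cKO in both batches like Cd74, with at most 4 UMIs of any marker in a library. Coro1a, Cd79a, Lyz2 and Cd52 gave these sums, Ptprc was at 0 by the rule, and Cd3e, C1qa and Tyrobp were at 0. Their part in the result was not tested.

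Among the other named rises were Ltc4s (log2 difference 2.61), a leukotriene synthase gene, and the water channel gene Aqp1 (2.57). The kinase gene Prkcb (2.29) and the prostaglandin transporter gene Slco2a1 (1.36) were the rest. Ltc4s rested on 2, 43, 15 and 30 UMIs and Aqp1 on 4, 68, 23 and 49. Prkcb, on 6, 44, 17 and 42 UMIs, differed by 0.51 in batch 1 and 2.79 in batch 2. In Notch2 cKO 2 the highest 3 members held 64.3% of the Prkcb UMIs. Aqp1 stood at 23.3, 77.4, 11.5 and 89.4 in members and at 154, 405, 84.6 and 346 in other Pdgfra cells, where it rose too. Slco2a1 was level in batch 1 (69.8 and 69.4) and rose only through batch 2 (41.1 and 175), and 1 cell of Notch2 cKO 2 held 68.8% of its UMIs in that library.

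The named falls were led by Cyp26b1, which breaks down retinoic acid, at 58.2, 7.96, 31.6 and 1.82 (log2 difference -3.20, SE 0.63), on 10, 7, 63 and 1 UMIs. Lepr, the leptin receptor gene, stood at 134, 33.0, 107 and 23.7 in members, with both Notch2 cKO libraries below both controls (-2.13, SE 0.37, adjusted p = 1.43e-05, edgeR quasi-likelihood test). It stood at 561, 158, 522 and 169 in other Pdgfra cells and fell there as well. The interferon-inducible Ifitm1 fell from 349 to 88.7 in batch 1 and from 163 to 45.6 in batch 2 (-1.94, SE 0.32). Gucy1a1 (-2.81), a receptor subunit for nitric oxide, and Ano1 (-2.41), a chloride channel, fell too. So did Vtn (-1.84), which encodes the adhesion protein vitronectin, and the secreted Crispld2 (-1.85). Gucy1a1 rested on 14, 8, 49 and 3 UMIs, Ano1 on 7, 13, 79 and 1, and Crispld2 on 10, 15, 93 and 7. Cxcl9 (-1.55), an interferon-induced chemokine gene, rested on few cells: in control 1 only 5 members held its UMIs, and 1 of them 74.1%. Cdk8 (-1.55), a Mediator kinase gene, stood at 52.4 and 28.4 in batch 1 but 868 and 259 in batch 2. Its log2 differences within batches were -0.82 and -1.83. Without control 2 the value turned to 1.32, in a fit without the batch term that set control 1 against both Notch2 cKO libraries.

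Among calls outside that set, Ccl19 fell by 1.46 on the log2 scale (902, 144, 403 and 332), mostly in batch 1. The mural genes Rgs5 (-1.38) and Notch3 (-2.98, on 4, 2, 74 and 3 UMIs) fell too. The mural marker sum given above moved the same way, from 489 to 144 and from 301 to 192. Col12a1 (-1.26) was the only collagen gene called. Of 37 adventitial progenitor genes outside the rule 35 were tested and none rose or fell, with a median log2 difference of 0.11. None of the 20 elastic fibre genes tested rose or fell either, and the same held for 10 proteoglycan, 14 Wnt and 19 protease genes tested. Without a called gene, large differences in these lists remain possible at this depth, since the median SE over all genes tested was 0.43 on the log2 scale.

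Of the rule genes, Pi16 differed by 0.17 (SE 0.41), Dpp4 by 0.09 (SE 0.32), Sema3c by -0.14 (SE 0.35) and Smpd3 by 0.77 (SE 0.38) on the log2 scale, and none passed the test. The rule asks for UMIs of these genes in each cell and so holds their levels up in both genotypes. Mrgprg had opposite signs, at 0.98 in batch 1 and -0.93 in batch 2.

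Notch2, the targeted gene (chromosome 3, 98013527 to 98150361, plus strand, mm10), stood at 87.3, 102, 152 and 139 in members. It was higher there than in other Pdgfra cells, where it was 39.8, 16.9, 56.1 and 38.6. In members the difference was -0.05 (SE 0.32) and did not pass, while in other Pdgfra cells it fell by 0.91 (SE 0.20, adjusted p = 0.0167, edgeR quasi-likelihood test). The difference between the groups, 0.74 (SE 0.26), did not pass the test of the difference itself (adjusted p = 0.269, edgeR), so Notch2 is not shown to respond differently in members. The labels do not name the floxed exons, and counts from the 3′ end of the transcript may include that of the recombined gene, so these values check no deletion. Hes1, picked here after its values were seen, stood at 105, 100, 89.7 and 52.9 in members and at 204, 75.5, 214 and 51.8 in other Pdgfra cells. The 2 cell groups differed in controls and lay close together in Notch2 cKO. Its difference was -0.49 (SE 0.33) in members and -1.77 (SE 0.23) in other Pdgfra cells, and the test of the difference between these passed at 1.34 (SE 0.29, adjusted p = 0.00124, edgeR). Rbpj, whose product carries the Notch signal to DNA, was 2.22 to 2.63 times higher in members than in other Pdgfra cells, and the ligand gene Jag1 1.26 to 2.10 times higher. Neither passed the genotype test in members. Of 20 genes listed for the Notch pathway 8 were tested in members, and 1 (Notch3) fell, beside 0.223% of all genes tested. Notch3 rested on only 4, 2, 74 and 3 UMIs in the 4 libraries.

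**Figure D4:**
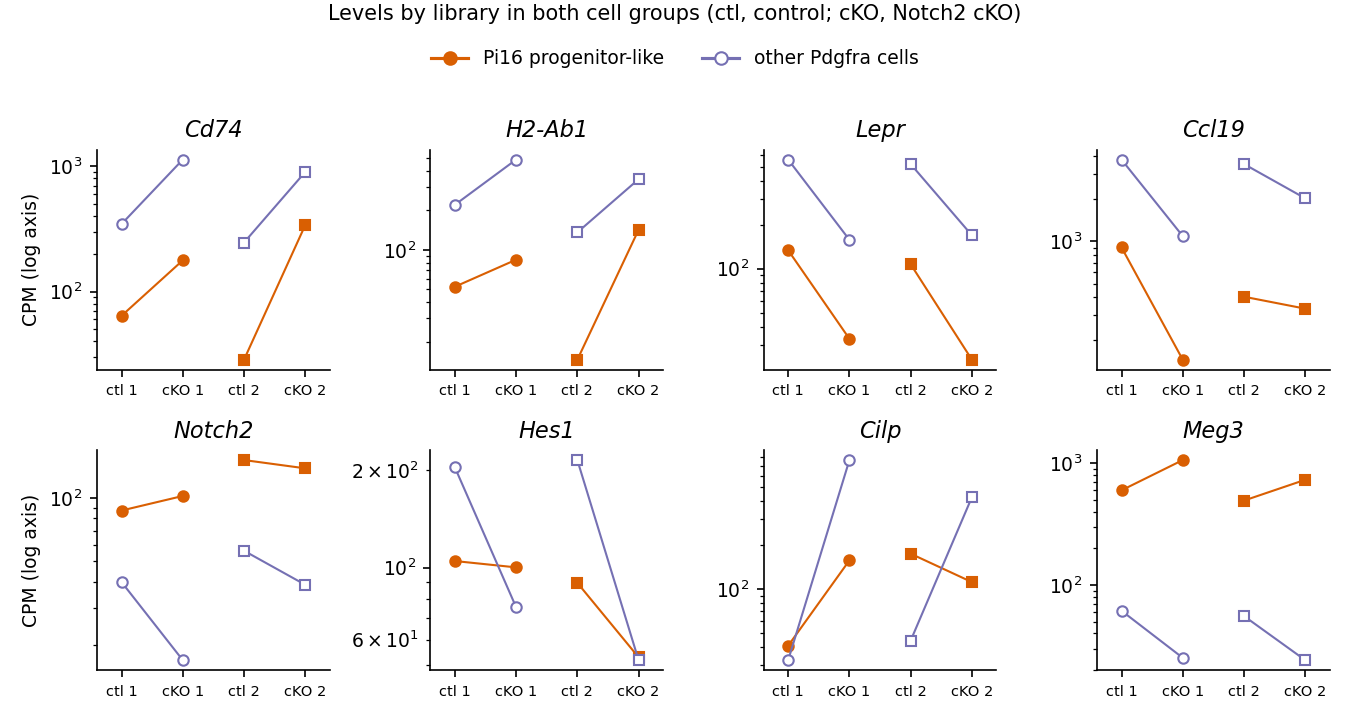
Levels (CPM, log axes that differ between panels) of 8 genes in each library, in Pi16 progenitor-like cells (filled) and other Pdgfra cells (open), with lines joining the libraries of a batch. Lepr and Ccl19 are lower and Cd74 and H2-Ab1 higher in Notch2 cKO in both groups and both batches, and in batch 2 Cd74 and H2-Ab1 differ more in members; the test of unequal differences passed for Cd74, H2-Ab1, Hes1, Cilp and Meg3.

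Some genes had unequal genotype differences in members and in other Pdgfra cells of the same libraries. The test compared the 2 log2 differences in one edgeR quasi-likelihood model with libraries as a block, which left 1 residual degree of freedom and again used a common trend for the spread. Of 13994 genes, 48 had a higher (0.343%) and 80 a lower (0.572%) difference in members, 0.915% of those tested, and 116 of the 128 had 1 sign in both batches. The count was 80 without the population by batch term, and 62 of those were among the 128. Fits with 1 library left out also lacked that term, and gave 66 without control 1, 38 without Notch2 cKO 1, 7 without control 2 and 109 without Notch2 cKO 2. With Cd34 cells without Pi16 in place of other Pdgfra cells 40 genes passed, of which 19 were among the 128.

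Many of the called genes changed in other Pdgfra cells, with a small difference in members. Of the 128, 74 also passed the genotype test in other Pdgfra cells, and 68 of these were tested in members. The median size of the log2 difference over these genes was 1.38 in other Pdgfra cells and 0.21 in members, 53 were within 0.5 of zero in members, and 3 passed there. The median size over all genes tested in members was 0.26. Genes with an interaction call were selected for unequal differences, so the smaller size in 1 group is a description. Of the 128, 11 were too low in members for the genotype test.

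Of the called genes, 49 rose in other Pdgfra cells and had a lower difference in members. Of these, 33 stood higher in members than in other Pdgfra cells in both controls, against 28.0% of all genes tested. In all 4 libraries 22 of the 49 did so. The choice of genes by their differences can favour such an order, so these counts are a description. Basp1, a membrane protein gene of growing axons, shows the pattern: it was 442, 560, 294 and 230 in members and 21.4, 104, 26.4 and 98.5 in other Pdgfra cells. For Basp1, other Pdgfra cells of Notch2 cKO thus lay nearer to members than those of controls did. Adamts15, a matrix protease gene, stood at 52.4, 41.0, 27.1 and 38.3 in members and went from 3.72 to 60.6 and from 3.02 to 26.5 in other Pdgfra cells. Podn, a proteoglycan gene, was 46.5 to 77.7 in members, 17.0 and 21.4 in other Pdgfra cells of controls and 81.9 and 49.6 in those of Notch2 cKO. Adcy7, an adenylyl cyclase gene (interaction -2.84), and Myoc, the myocilin gene (-2.11), were likewise higher in members of controls than in other Pdgfra cells of controls. Against Cd34 cells without Pi16 the Myoc value turned to 2.92.

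Cilp, a cartilage matrix protein gene (chromosome 9, 65265180 to 65280605, plus strand, mm10), had the largest rise among other Pdgfra cells of the named genes. It stood at 32.4, 767, 44.1 and 427 there and at 40.7, 157, 174 and 111 in members. In members the batches went opposite ways, with a log2 difference of 0.17 (SE 0.33), and the difference of differences was -3.55 (SE 0.29, adjusted p = 1.26e-29, edgeR quasi-likelihood test). Smoc2 (-2.06) and Bmper (-2.45), which encode secreted proteins, had a lower difference in members too. The Smoc2 value turned to 0.06 without control 2 and the population by batch term, and to 0.11 against Cd34 cells without Pi16. Col8a1 (-3.78) and Thbs4 (-3.46) rested on members of control 2. There they stood at 75.7 and 194 against at most 5.47 and 34.1 in the other libraries. Thbs4 was found in only 7.69% of members of control 2 (16 cells), and 3 of these held 76.3% of its UMIs there. Without control 2 and the population by batch term the Col8a1 value turned to 3.90. Of 16 genes that rose in reticular cells in an earlier analysis of these same libraries, 7 had a lower difference in members and none a higher one. Over all genes tested these shares were 0.572% and 0.343%. None of the 7 tested in members rose. That list was chosen on these samples and is not independent evidence.

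In the other direction, 23 called genes fell in other Pdgfra cells and had a higher difference in members, and 22 of them stood above other Pdgfra cells in members of both Notch2 cKO libraries, against 29.9% of all genes tested. In both controls 16 of the 23 did so, and the choice of genes by their differences favours such an order. Meg3, a long non-coding RNA gene of an imprinted cluster (chromosome 12, 109541001 to 109571726, plus strand, mm10), was 599, 1062, 494 and 732 in members and 61.4, 25.2, 55.5 and 24.1 in other Pdgfra cells. It lay higher in Notch2 cKO in both batches in members and lower in both in other Pdgfra cells. In members its difference did not pass (0.65, SE 0.34), in other Pdgfra cells it fell by 1.28 (SE 0.18), and the difference between them was 1.95 (SE 0.22, adjusted p = 1.55e-15, edgeR). Rian, a non-coding RNA gene of the same cluster, had a difference of 1.94, with 111, 150, 77.2 and 82.1 in members. Pi15, a peptidase inhibitor gene related to Pi16, stood at 111, 106, 103 and 80.3 in members and went from 58.5 to 9.82 and from 107 to 25.8 in other Pdgfra cells (2.01, SE 0.28). Tgfb2, a growth factor gene (1.82), Il1r2, a decoy receptor gene for interleukin-1 (1.75), Tppp3, a tubulin-binding protein gene of tendon sheath cells (1.43), and Entpd1, which encodes the ATP-degrading enzyme CD39 (2.34), had higher differences in members as well. So did Vit (1.44), Col6a6 (1.41), a chain of collagen VI, and Gngt2 (1.36), a G protein subunit gene. Of 18 genes that fell in reticular cells in that earlier analysis, 4 had a higher difference in members (Pi15, Ntrk2, Meg3 and Hes1). Over all genes tested this share was 0.343%, and the list was again chosen on these samples.

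**Figure D5:**
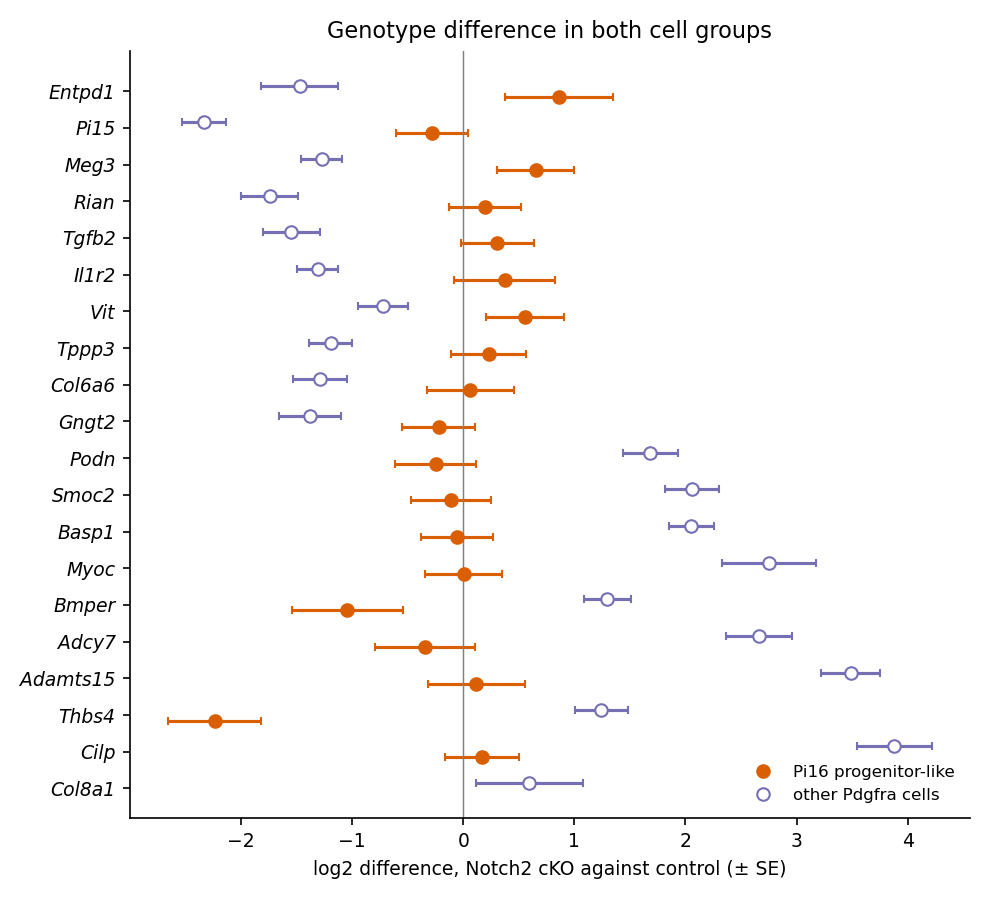
Log2 difference of Notch2 cKO against control (± SE, 2 libraries per group) of the 20 named genes whose difference differed between Pi16 progenitor-like cells (filled) and other Pdgfra cells (open). In members the values lie between -1.04 and 0.86 except for Thbs4 at -2.24, and Col8a1 has no value in members because it was too low for the test there.

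The sequences upstream of Cilp and Meg3 are shown because both genes differed between the cell groups in a Notch2 experiment, and RBPJ binds DNA at a site whose core is TGGGAA. The 250 bases before each RefSeq start (GRCm38.p6, both on the plus strand) were searched on both strands, and matches to the core are in capitals. Meg3 has 2 entries, at chr12:109540746-109540995 and chr12:109545148-109545397, and Cilp has 1 at chr9:65264930-65265179.
Meg3, first start: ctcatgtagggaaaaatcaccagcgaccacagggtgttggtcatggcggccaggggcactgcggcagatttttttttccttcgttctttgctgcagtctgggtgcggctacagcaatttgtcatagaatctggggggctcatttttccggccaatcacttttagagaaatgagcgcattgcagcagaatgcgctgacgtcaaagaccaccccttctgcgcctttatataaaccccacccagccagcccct
Meg3, second start: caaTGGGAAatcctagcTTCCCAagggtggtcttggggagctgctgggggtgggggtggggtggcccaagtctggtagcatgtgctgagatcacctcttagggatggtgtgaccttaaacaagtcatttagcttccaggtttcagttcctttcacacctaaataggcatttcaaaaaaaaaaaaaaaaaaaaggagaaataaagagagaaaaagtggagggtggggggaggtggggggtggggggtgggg
Cilp: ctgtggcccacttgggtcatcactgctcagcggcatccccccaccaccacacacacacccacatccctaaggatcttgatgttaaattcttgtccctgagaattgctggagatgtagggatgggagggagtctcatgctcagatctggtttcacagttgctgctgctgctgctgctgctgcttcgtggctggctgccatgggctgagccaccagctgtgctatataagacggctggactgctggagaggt
The core occurred at the second start of Meg3 only, 2 times, and 21.6% of 32851 promoters held it at least once. A match is a description of letters and shows no binding, and its absence in this window says nothing of the factor.

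Of the 36 listed adventitial genes tested between cell groups, 8 had unequal differences, beside 0.915% of all genes tested. Dpt (-0.89), Ly6a (-0.70), Limch1 (-1.16), Ackr3 (-1.62) and Fndc1 (-1.02) were lower and Clec3b (0.83), Cd248 (0.90) and Procr (1.17) higher in members. Ackr3, a scavenging receptor gene for CXCL12, stood at 716, 883, 605 and 515 in members and at 18.5, 66.4, 17.3 and 49.1 in other Pdgfra cells, where it rose (log2 difference 1.63). Dpt stood at 2984, 4053, 2679 and 2288 in members and at 528, 1552, 455 and 645 in other Pdgfra cells. Clec3b was steady in members, at 2757, 2629, 2377 and 2645, and its difference in other Pdgfra cells was -0.79 and did not pass. Over the 36 genes of the list tested this way, the median difference of differences was 0.08, beside -0.04 over all genes tested.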

How the data were processed

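The deposited files were UMI counts per gene and cell for 32285 genes in 4 libraries (3′ kit v3.1), filtered to cells by the authors' pipeline, Cell Ranger, whose version per the file headers was 5.0.1 for the first batch but 7.1.0 for the second. The submitters' processing notes name 5.0.1 and mm10. The libraries held 21533049, 25644596, 119002408 and 108144616 UMIs. Members and lists were chosen with earlier results of these data known.

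Members were picked by their UMIs and no clusters were made. Doublets were scored with Scrublet in scanpy 1.11.5, taking 0.8% of cells per 1000 as the rate, and were kept. Counts summed per library were tested with edgeR 4.0.16 (R 4.3.3, limma 3.58.1; TMM scaling, filterByExpr, quasi-likelihood test, Benjamini-Hochberg adjustment at 0.05), and the scripts were tested on simulated data. DESeq2 1.42.0, other scalings and filters, other rules and leaving out each library were the alternatives. The labels give replicate numbers as batches, and deviations of same-numbered libraries correlated at 0.53 over 6594 genes. The genotype model therefore held the batch as a block. Within-batch differences used a prior count of 2. Shares were compared with an exact permutation test (scipy 1.17.1, Python 3.11.15).

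Named genes were the rule genes and Notch2, the 10 largest changes per direction among called genes whose batches had the same sign and whose mean was at least 20 CPM, the 15 leading genes of members, and up to 4 genes of each of 31 lists with the highest levels. Cd34, Ly6a, Cd248 and other markers of the label, Pcolce2 among them, were named as its check. Further genes named from the calls were picked after their values were seen. Some genes that the rule names are not reported here. Promoter sequences came from RefSeq (GRCm38.p6), where entries for only some of the members were found. Coordinates came from the mm10 annotation.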

Additional observations from a re-analysis of the deposited data

Results flagged for a closer look

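For 20 genes the genotype difference differed between Pi16 progenitor-like cells and other Pdgfra cells of the same libraries by the edgeR test of the difference itself. The log2 difference in members minus that in other Pdgfra cells was 2.34 for Entpd1, 2.01 for Pi15, 1.95 for Meg3, 1.94 for Rian and 1.82 for Tgfb2. It was 1.75 for Il1r2, 1.44 for Vit, 1.43 for Tppp3, 1.41 for Col6a6 and 1.36 for Gngt2. On the lower side it was -3.78 for Col8a1, -3.55 for Cilp, -3.46 for Thbs4, -3.20 for Adamts15 and -2.84 for Adcy7. It was -2.45 for Bmper, -2.11 for Myoc, -2.09 for Basp1, -2.06 for Smoc2 and -1.75 for Podn. Entpd1 rested on 2 UMIs in members of control 1.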

How the results depend on the processing

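The 28 genes called between genotypes in members became 0 without the replicate block, 0 with DESeq2, 7 with high doublet scores removed and 1 in members with Ccl19 and Ccl21a both at 0. Leaving out 1 library, without the batch term, gave 0 to 105. The 128 genes with unequal differences became 80 without the population by batch term and 40 against Cd34 cells without Pi16, a comparison added after seeing the data, and 7 to 109 with 1 library and that batch term left out. With 1 library left out, and without batch terms, Cdk8 ranged from -4.08 to 1.32, Col8a1 from -3.95 to 3.90 and Smoc2 from -3.22 to 0.063. Each turned without control 2. Against Cd34 cells without Pi16, Myoc was 2.92 and Smoc2 0.11. The difference in mean share ranged from -0.472 to 2.52 points with 1 library left out, and was -0.472 without Notch2 cKO 1. The share was 1.02% in control 2 with thinned cells. With at least 1 Pi16 UMI it was 1.12%, 4.13%, 1.53% and 0.80%, and with at least 5 it was 0.619% in control 1 and 3.04% in Notch2 cKO 1. Among Pdgfra cells it was 2.84% in Notch2 cKO 1 and 1.65% in control 2. In control 1 it was 0.648% with stricter cell limits and 0.667% with high doublet scores removed. The cause of these shifts was not tested. Over the named genes, 102 genotype values kept direction and call, 127 lost the call and 1 reversed. For the differences between cell groups the numbers were 90, 46 and 4. Depth limits low genes most in control 1.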
